A study of Mus musculus with 24 samples.

Results

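The genes described here are 9 components of the Hedgehog pathway: the ligand gene Shh, the receptor genes Ptch1, Boc and Gas1, the transducer Smo, the transcription factor genes Gli1, Gli2 and Gli3, and the antagonist gene Hhip. They were taken by gene symbol from a table of 49705 gene entries, each symbol matched 1 entry, and all 9 passed the filter on low values that left 21005 genes for testing. RNA was measured by polyA RNA-seq in 24 libraries from optic vesicle (OV) organoids, which are aggregates of mouse embryonic stem cells (mESCs) that form eye field tissue in culture. The libraries fall into 8 groups of 3: live cells on day 0, day 1, day 2 and day 3, and GFP-negative and GFP-positive cells on day 4 and on day 5.

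All groups came from 1 cell line, Rx-GFP K/I EB5, in which GFP is knocked into the locus of the eye field gene Rax, and all but the stem cells of day 0 went through the same differentiation in floating culture, with Matrigel added on day 1. The labels name a GMEM medium with knockout serum replacement, whereas the methods of the study name a chemically defined medium for its initial organoids. No group received a Hedgehog agonist or inhibitor according to the labels and the study's methods. The GFP gate separates cells by Rax reporter level, so the GFP-negative groups hold every live cell below the gate, whatever its type, and the groups of days 0 to 3 were not split. Each group has triplicate samples from pooled organoids, so that p-values measure the spread between such samples of a single line, part of which may be technical. In bulk RNA, fewer cells of a type and less RNA per cell cannot be told apart.

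Hedgehog ligands bind Patched receptors, which otherwise hold the membrane protein Smoothened inactive. Boc and Gas1 are co-receptors that present the ligand to Patched. Active Smoothened acts in the primary cilium to turn Gli proteins from repressors into activators, and Gli1, Ptch1 and Hhip are themselves classical transcriptional targets of the pathway, with Ptch1 and Hhip acting as negative feedback. In the embryo, Shh from the axial mesoderm and ventral forebrain splits the eye field into left and right parts and patterns the optic vesicle, with high signal favouring optic stalk fate.

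Stretches of DNA upstream of members are shown because these genes had gate differences of opposite sign on day 5, Ptch1 being higher below the GFP gate and Gas1 above it. Each is the 250 bases before the gene start in RefSeq (GRCm38.p6), read on the gene's own strand from 5′ to 3′, with CG dinucleotides in capitals. The Ptch1 stretch lies at chr13:63565736-63565985 on the minus strand and the Gas1 stretch at chr13:60177536-60177785 on the minus strand.
Ptch1: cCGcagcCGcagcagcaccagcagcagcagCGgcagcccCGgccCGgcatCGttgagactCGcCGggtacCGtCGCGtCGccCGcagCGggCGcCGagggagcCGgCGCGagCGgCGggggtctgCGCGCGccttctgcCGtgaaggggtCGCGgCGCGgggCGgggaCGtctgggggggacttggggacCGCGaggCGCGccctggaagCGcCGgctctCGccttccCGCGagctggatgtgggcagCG
Gas1: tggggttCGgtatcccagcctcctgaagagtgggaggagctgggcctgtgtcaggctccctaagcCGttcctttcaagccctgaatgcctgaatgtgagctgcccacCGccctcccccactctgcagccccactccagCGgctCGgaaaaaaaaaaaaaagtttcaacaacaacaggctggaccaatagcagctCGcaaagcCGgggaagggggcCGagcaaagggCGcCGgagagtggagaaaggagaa
The Ptch1 stretch held 41 CG dinucleotides, a number reached by 1.09% of 32851 RefSeq windows, and the Gas1 stretch held 10, reached by 37.8%. The Ptch1 start used by RefSeq lies inside the gene as the authors' table bounds it, so the stretch belongs to 1 of the gene's starts. The Gli binding core CCACCCA and its longer form GACCACCCA, which contains the core, were searched on both strands of 300-base windows that also hold the first 50 bases of each gene. The core was present in 9.30% of all windows and the longer form in 0.253%, and neither was present in the windows of the 6 members matched (Ptch1, Gas1, Smo, Gli2, Gli3 and Hhip). Of the 42 other pathway genes with a window, the ventral neural transcription factor genes Nkx2-9 and Olig2 and the proliferation gene Mycn held the core. The first pair is shown because both genes rose in day 5 GFP-negative cells, and the core is in capitals.
Nkx2-9: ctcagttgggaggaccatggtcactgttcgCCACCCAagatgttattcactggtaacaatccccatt
Olig2: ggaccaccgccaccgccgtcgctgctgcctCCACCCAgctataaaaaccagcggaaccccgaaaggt
The Nkx2-9 stretch is at chr12:56613455-56613521 on the minus strand and the Olig2 stretch at chr16:91225503-91225569 on the plus strand, both in GRCm38.p6. A match of these letters is a description of the window and not a binding site.

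Values are normalized counts per library as deposited, and gene positions are those of the authors' table in mm10, all 9 being protein-coding genes. A call needed both a log2-fold-change beyond 1.5 in either direction on log2(normalized count + 1) and a limma p under 0.001 after adjustment by Benjamini-Hochberg over all 21005 genes. A looser rule, an adjusted p under 0.05 with no limit on the fold, is given beside it. Some counts at an unadjusted p under 0.05 are given as well. The share of all genes at that cut is not given, but it cannot be below the share under the looser rule. Over the 9 members and 11 comparisons, 15 of 99 values were called. The share of all genes called ran from 0.109% to 12.0% by comparison. Comparisons share groups, so the 99 values are not separate outcomes and the total is only a tally. Libraries summed to between 39849111 and 51587535 normalized counts, and 1 read was worth about 0.801 to 1.39 normalized counts, so values of a few counts rest on a few reads. Day 0 replicate 1 stood apart, with Spearman correlations of 0.954 and 0.953 with the other day 0 replicates, against 0.979 to 0.993 for all other pairs of replicates. The 5 eye field genes Rax, Pax6, Lhx2, Six3 and Six6 were called higher in GFP-positive cells on both days, with a summed level of 45893 to 47745 against 8870 to 10833 on day 4.

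**Figure D1:**
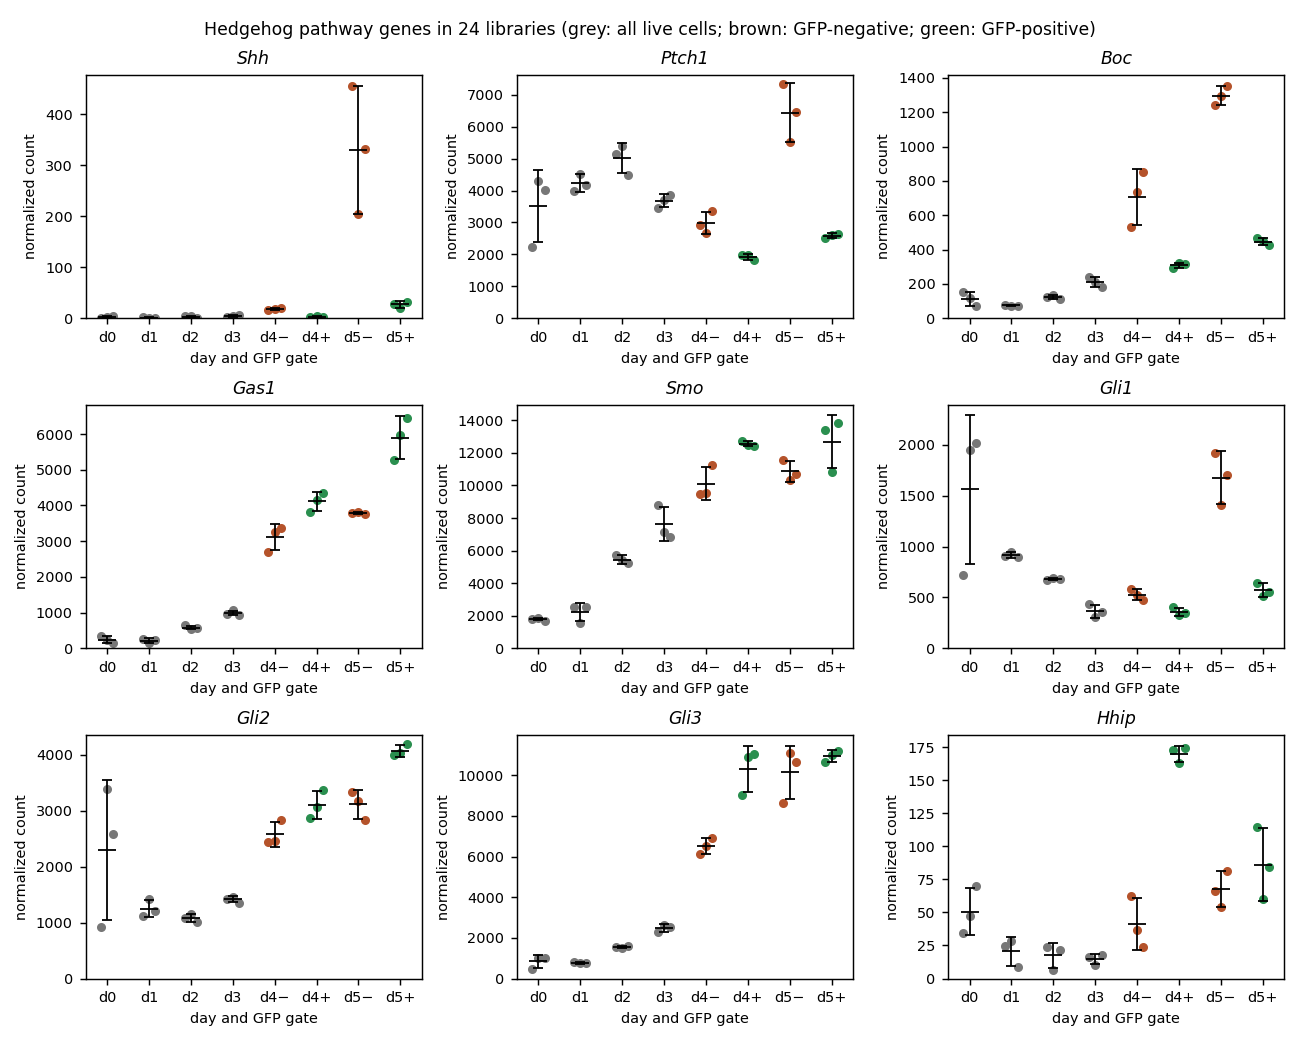
Normalized counts (linear vertical axes from 0) of the 9 Hedgehog pathway genes in 24 libraries, by day and GFP gate. Points are libraries, horizontal lines means and vertical bars SD of 3 replicates; Shh, Ptch1, Boc and Gli1 stand highest in day 5 GFP-negative cells, except that Gli1 overlaps with day 0, and Hhip stands highest in day 4 GFP-positive cells at 163 to 174.

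The ligand gene Shh (chr5:28456815-28467256, minus strand) was close to 0 in the unsorted groups, was detected at low levels in day 4 GFP-negative cells and was most abundant in day 5 GFP-negative cells. In the replicates of day 0 it had 0, 1.27 and 3.55 normalized counts, on day 1 it had 2.26, 0 and 1.08, on day 2 it had 3.44, 4.28 and 0, and on day 3 it had 2.44, 4.55 and 5.69. In sorted cells it had 15.6, 17.9 and 19.9 (day 4 GFP-negative), 2.27, 4.58 and 2.58 (day 4 GFP-positive), 455, 205 and 332 (day 5 GFP-negative) and 28.2, 19.6 and 32.6 (day 5 GFP-positive). The replicates of day 5 GFP-negative cells were therefore all above those of every other group, and those of day 4 GFP-negative and day 5 GFP-positive cells overlapped with each other and with no other group. Shh rose in GFP-negative cells from day 4 to day 5, and the log2-fold-change was 4.07 (standard error, SE, 0.60, limma-adjusted p = 9.75e-05). On day 5 its level in the GFP-positive gate was below that in the GFP-negative gate, with a log2-fold-change of -3.53 (SE 0.60, limma-adjusted p = 0.000164), a ratio of means of 12.3. On day 4 the gate difference was -2.21 (limma-adjusted p = 0.0128), which passed only the looser rule, and in GFP-positive cells the step from day 4 to day 5 was 2.76 (limma-adjusted p = 0.00362). With a pseudocount of 5 these 2 values were -1.49 and 1.95, so that the size of differences among low levels of Shh depended on the pseudocount.

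Both calls of Shh depended on single libraries and on the treatment of low values. The day 5 gate difference lost its call without day 5 GFP-negative replicate 1 (-3.26), without day 5 GFP-negative replicate 3 (-3.49) and without day 5 GFP-positive replicate 2 (-3.33), and the rise from day 4 to day 5 lost it without day 5 GFP-negative replicate 1 (3.81). Over all alternatives the adjusted p of the gate difference lay between 3.65e-08 and 0.00238, and that of the rise between 3.43e-08 and 0.00138, with no change of direction.

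Ptch1 (chr13:63508328-63573598, minus strand), the receptor that binds the ligand and is induced by the pathway, was expressed from day 0 onwards, was lowest in day 4 GFP-positive cells and was highest in day 5 GFP-negative cells. Its normalized counts were 2232, 4313 and 4012 on day 0, 3996, 4531 and 4159 on day 1, 5153, 5404 and 4500.2 on day 2, and 3462, 3716 and 3872 on day 3. In sorted cells they were 2919, 2679 and 3364 (day 4 GFP-negative), 1968, 1978 and 1824 (day 4 GFP-positive), 7349, 5521 and 6463 (day 5 GFP-negative) and 2498, 2596 and 2645 (day 5 GFP-positive). On each of the sorted days the replicates of GFP-positive cells were all below those of GFP-negative cells. The log2-fold-change between gates was -0.63 (SE 0.17, limma-adjusted p = 0.0128) on day 4 and -1.31 (SE 0.17, limma-adjusted p = 6.53e-06) on day 5. The values for the step from day 3 to day 4 GFP-positive cells and for the step from day 4 to day 5 in GFP-negative cells were -0.94 (limma-adjusted p = 0.000141) and 1.11 (limma-adjusted p = 0.000159). All of these passed the looser rule, and none reached the log2-fold-change of 1.5 that a call needed.

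Boc (chr16:44485049-44558897, minus strand), a co-receptor, was low through day 3 and higher in GFP-negative than in GFP-positive cells afterwards. It had 149, 119 and 71.0 normalized counts on day 0, 76.7, 72.4 and 72.6 on day 1, 125, 135 and 114 on day 2, and 239.6, 208 and 181 on day 3. In sorted cells it had 529, 735 and 849 (day 4 GFP-negative), 289.6, 319 and 313 (day 4 GFP-positive), 1241, 1294 and 1355 (day 5 GFP-negative) and 466, 448 and 425 (day 5 GFP-positive). From day 3 onwards no 2 groups overlapped. Boc rose from day 3 to day 4 GFP-negative cells by a log2-fold-change of 1.73 (SE 0.20, limma-adjusted p = 2.83e-06) and was lower in GFP-positive than GFP-negative cells on day 5, with a value of -1.54 (SE 0.20, limma-adjusted p = 7.87e-06). The gate difference on day 4 was -1.17 (limma-adjusted p = 0.000229), short of the fold limit. The day 5 call was kept without each library in turn, and the rise from day 3 into day 4 GFP-negative cells was no longer called when only those 2 groups were fitted.

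Gas1 (chr13:60174405-60177365, minus strand), the other co-receptor among the members, rose at several steps and had its highest level in GFP-positive cells. It had 349, 222 and 162 normalized counts on day 0, 270.0, 138 and 228 on day 1, 639.8, 543 and 562 on day 2, and 961, 1066 and 937 on day 3. In sorted cells it had 2704, 3269 and 3368 (day 4 GFP-negative), 3830.2, 4154 and 4360.4 (day 4 GFP-positive), 3789.7, 3823 and 3748 (day 5 GFP-negative) and 5259, 5986 and 6453 (day 5 GFP-positive). Apart from day 0 and day 1, no 2 groups that follow each other in this order of days and gates overlapped, and on both sorted days GFP-positive replicates were all above GFP-negative ones. Gas1 rose from day 1 to day 2 by a log2-fold-change of 1.50 (adjusted p = 5.19e-05), from day 0 to day 3 by 2.08 (adjusted p = 1.07e-07), and from day 3 to GFP-positive cells of day 4 by 2.06 (adjusted p = 1.22e-07) and to GFP-negative cells by 1.65 (adjusted p = 1.12e-05), each with a standard error of 0.22 (limma). The gate difference itself was 0.41 (limma-adjusted p = 0.252) on day 4 and 0.63 (limma-adjusted p = 0.0499, or 0.0906 with equal numbers in both gates treated as 1 pool) on day 5, so that Gas1 and Boc, both co-receptors, had gate differences of opposite sign on each day. The call for day 2 sat at the fold limit and was lost when only those 2 groups were fitted, without day 1 replicate 2 (1.22) and without day 2 replicate 1 (1.43).

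Smo (chr6:29735503-29761365, plus strand), the transducer that Patched restrains, rose early and varied little between gates. Its normalized counts were 1812, 1842 and 1702 on day 0, 2554, 1575 and 2542 on day 1, 5724, 5413 and 5227 on day 2, and 8816, 7164 and 6866 on day 3. In sorted cells they were 9474, 9554 and 11273 (day 4 GFP-negative), 12746, 12502 and 12442 (day 4 GFP-positive), 11578, 10333 and 10709.6 (day 5 GFP-negative) and 13429, 10829.9 and 13823 (day 5 GFP-positive). The gates did not overlap on day 4 and overlapped on day 5. Between day 0 and day 3 the log2 level rose by 2.08 (SE 0.15, limma-adjusted p = 3.63e-10), most of it between day 1 and day 2 (1.33, limma-adjusted p = 2.72e-06). The gate difference was 0.32 (95% confidence interval 0.01 to 0.63) on day 4 and 0.22 (-0.09 to 0.52) on day 5.

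Gli1 (chr10:127329882-127341974, minus strand), the activator whose transcription is a common readout of pathway activity, was high in the stem cells, fell until day 3 and was high again in day 5 GFP-negative cells. Its normalized counts were 721, 1952 and 2016 on day 0, 905, 949 and 900.3 on day 1, 673, 690.1 and 677 on day 2, and 431, 305 and 352 on day 3. In sorted cells they were 582, 523 and 472 (day 4 GFP-negative), 406, 329 and 344 (day 4 GFP-positive), 1919, 1408 and 1707 (day 5 GFP-negative) and 647, 512 and 558 (day 5 GFP-positive). Day 5 GFP-negative replicates were all above those of day 5 GFP-positive cells and lay within the range of day 0. The fall between day 0 and day 3 measured -1.98 (SE 0.25, limma-adjusted p = 1.97e-06), the rise in GFP-negative cells from day 4 to day 5 was 1.67 (SE 0.25, limma-adjusted p = 0.000144), and the gate difference on day 5 was -1.55 (SE 0.25, limma-adjusted p = 0.000115). On day 4 the gate difference was -0.55 (limma-adjusted p = 0.175), although the replicates of the gates did not overlap. The day 5 gate call was lost without day 5 GFP-negative replicate 1 (-1.44) or day 5 GFP-positive replicate 2 (-1.47). The call for the rise was lost in 4 fits, without day 4 GFP-negative replicate 2 or 3 (1.66 and 1.59) or without day 5 GFP-negative replicate 1 or 3 (1.56 and 1.65).

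Gli2 (chr1:118834132-119053619, minus strand), the main activator of early signalling, had its highest level in day 5 GFP-positive cells and passed the rule for a call in no comparison. Its normalized counts were 931, 3397 and 2581 on day 0, 1118, 1419 and 1214 on day 1, 1088, 1154 and 1006 on day 2, and 1427, 1461 and 1355 on day 3. In sorted cells they were 2446, 2465 and 2834 (day 4 GFP-negative), 2867, 3072 and 3366 (day 4 GFP-positive), 3344, 3168 and 2837 (day 5 GFP-negative) and 3992, 4027 and 4195 (day 5 GFP-positive). GFP-positive replicates were above GFP-negative ones on both days, by a log2-fold-change of 0.27 (95% confidence interval -0.30 to 0.83) on day 4 and 0.39 (-0.17 to 0.95) on day 5. The largest step, to day 4 GFP-positive cells, measured 1.13 (SE 0.27, limma-adjusted p = 0.00204).

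Gli3 (chr13:15463235-15730026, plus strand), which acts mainly as a repressor in the forebrain, rose by day 3 and again into day 4 GFP-positive cells. Its normalized counts were 481, 1034 and 1035 on day 0, 837, 778 and 744 on day 1, 1565, 1507 and 1621 on day 2, and 2280.2, 2648 and 2557 on day 3. In sorted cells they were 6123, 6528 and 6939 (day 4 GFP-negative), 9024, 10890.4 and 11026 (day 4 GFP-positive), 8660.3, 11095 and 10663 (day 5 GFP-negative) and 10654, 10977 and 11204 (day 5 GFP-positive). Day 4 GFP-negative cells were below the other sorted groups, which overlapped with each other. Gli3 rose by 1.63 from day 0 to day 3 (SE 0.19, limma-adjusted p = 5.64e-07) and by 2.04 between day 3 and GFP-positive cells of day 4 (SE 0.19, limma-adjusted p = 2.34e-08). The value for day 4 GFP-negative cells against day 3 was 1.39 (limma-adjusted p = 2.04e-05). The gate difference was 0.66 (limma-adjusted p = 0.0215) on day 4 and 0.12 (95% confidence interval -0.28 to 0.52) on day 5.

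Hhip (chr8:79965851-80058006, minus strand), which encodes a membrane protein that binds and sequesters the ligand, was the member with its peak in day 4 GFP-positive cells. It had 34.7, 47.1 and 69.7 normalized counts on day 0, 24.6, 28.6 and 8.42 on day 1, 23.9, 6.66 and 21.9 on day 2, and 16.4, 10.5 and 17.5 on day 3. In sorted cells it had 62.4, 37.0 and 24.0 (day 4 GFP-negative), 172, 163 and 174 (day 4 GFP-positive), 66.2, 54.3 and 81.5 (day 5 GFP-negative) and 114, 59.9 and 84.5 (day 5 GFP-positive). Day 4 GFP-positive replicates were all above those of every other group, and no other neighbouring groups in the order of levels were separated. Against day 3, the rise in day 4 GFP-positive cells reached 3.46 on the log2 scale (SE 0.46, limma-adjusted p = 3.09e-06), a ratio of means of 11.45. The gate difference on day 4 was 2.12 (SE 0.46, limma-adjusted p = 0.00216), which passed only the looser rule, and on day 5 it was 0.32 (95% confidence interval -0.63 to 1.28).

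The classical targets Gli1, Ptch1 and Hhip can be set side by side across the sorted groups. On day 5 the gate differences of Gli1 (-1.55) and Ptch1 (-1.31) were negative and their replicates did not overlap, whereas that of Hhip was 0.32 with overlapping replicates. On day 4 the gate difference of Hhip was 2.12 and that of Ptch1 -0.63, which both passed only the looser rule, and that of Gli1 was -0.55 (limma-adjusted p = 0.175), which passed neither. The Gli1 value passed the looser rule without day 0 replicate 1 (limma-adjusted p = 0.00384) and when only those 2 groups were fitted (0.0250).

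**Figure D2:**
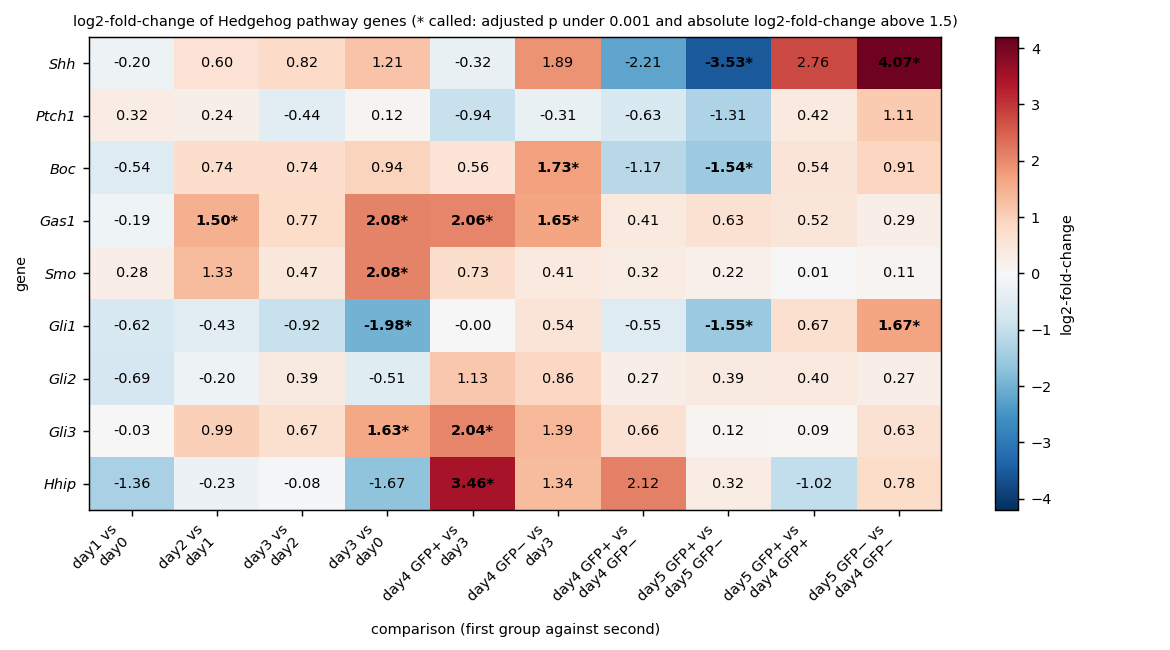
Log2-fold-changes of the 9 members in 10 comparisons between 2 groups, on log2(normalized count + 1); colour runs from blue (lower in the first group) to red (higher), and asterisks mark calls. The strongest colours are Shh at 4.07 in GFP-negative cells of day 5 against day 4 and at -3.53 in GFP-positive against GFP-negative cells of day 5, and Hhip in day 4 GFP-positive cells against day 3 (3.46).

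Between days 0 and 3 the question was which members changed before cells were sorted on the eye field reporter. By the methods of the study, organoids of day 3 already held a few GFP-expressing cells, and Rax went from 14.9, 10.7 and 10.5 normalized counts on day 2 to 156, 89.3 and 101 on day 3. From day 0 to day 3, 3 members rose (Gas1, Smo and Gli3) and 1 fell (Gli1), where 12.0% of all genes were called in either direction, and 6 of 9 passed the looser rule against 43.6% of all genes. When only the libraries of these 2 days were fitted, 1 of the 4 calls (Smo) was kept. The median log2-fold-change of the members was 0.94, against -0.03 over all genes. For single steps the counts were 0 members from day 0 to day 1 (0.738% of all genes), 1 from day 1 to day 2 (1.47%) and 0 from day 2 to day 3 (1.00%). At an unadjusted p under 0.05 in limma they were 4, 4 and 6, with no share of all genes at that cut to set beside them. Under the looser rule the steps had 0, 4 and 5 members, against 10.0%, 16.6% and 14.4% of all genes.

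Day 0 replicate 1 moved several of these values. It held the lowest Gli1, Gli2, Gli3 and Ptch1 of day 0, and without it the differences between day 1 and day 0 became -1.11 for Gli1 (from -0.62), -1.25 for Gli2 (from -0.69) and -0.40 for Gli3 (from -0.03). All 3 then passed the looser rule, as did Hhip at -1.60 (from -1.36). From day 0 to day 3, Gli1 was then -2.46, Gli2 -1.07 (from -0.51), and Gli3 1.27, which was no longer called, while the calls of Gas1 (2.37) and Smo (2.10) were kept. Ptch1 changed sign between these days without that library, from 0.12 to -0.18, and was called in neither fit.

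At the step to day 4, 3 members rose in GFP-positive cells (Gas1, Gli3 and Hhip) and 2 in GFP-negative cells (Gas1 and Boc), both against the same day 3 libraries. The shares of all genes called were 10.7% and 2.88%. Under the looser rule 7 members (6 higher, 1 lower) and 6 members (all higher) passed, against 37.9% and 18.5% of all genes.

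Between the gates on day 4, 0 members were called, against 3.96% of all genes, while 5 passed the looser rule (Hhip and Gli3 higher in GFP-positive cells, Shh, Ptch1 and Boc lower), against 15.7%. At an unadjusted p under 0.05 in limma there were 7, for which no share of all genes is given. On day 5, 3 members were called, all lower in GFP-positive cells (Shh, Boc and Gli1), against 5.01% of all genes, and 5 passed the looser rule (Gas1 higher, and Shh, Ptch1, Boc and Gli1 lower), against 16.0%. Most called genes of any kind were lower in GFP-positive cells, 763 of 832 on day 4 and 968 of 1052 on day 5 (569 of 675 under quantile normalization), so the 3 members had the direction of most called genes. From day 4 to day 5, 0 members were called in GFP-positive cells (1.49% of all genes), and 2 rose in GFP-negative cells (Shh and Gli1, with 1.27% of all genes called). Under the looser rule 1 and 5 members passed, against 9.80% and 10.2%. In GFP-positive cells 6 had an unadjusted p under 0.05 in limma, a count with no share of all genes beside it. Without day 0 replicate 1 the numbers under the looser rule were 6 between the gates on each day, and 6 and 5 from day 4 to day 5 in GFP-positive and GFP-negative cells. No share of all genes under the looser rule is given for that fit. Calls over all genes rose in it as well, between the gates from 832 to 946 and from 1052 to 1168, and between the days from 312 to 386 and from 267 to 327.

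Whether the gate difference itself changed from day 4 to day 5 was tested as an interaction. The estimates were -1.32 for Shh (95% confidence interval -3.08 to 0.45), -1.80 for Hhip (-3.15 to -0.45), -0.998 for Gli1 (-1.75 to -0.25) and -0.68 for Ptch1 (-1.18 to -0.18). No member was called, against 0.109% of all genes, and none passed the looser rule, against 1.10%. At an unadjusted p under 0.05 in limma there were 3, again with no share of all genes beside it. The looser rule depended on the libraries behind the shared spread, and without day 0 replicate 1 the calls over all genes rose from 23 to 51. Without day 0 replicate 1, which enters this comparison only through that spread, 0 members were called and 3 passed the looser rule, Gli1 (SE 0.18, limma-adjusted p = 0.00332), Ptch1 (0.00854) and Gli3 (-0.54, 0.0288), with the same estimates. Gli1 (0.0167) and Ptch1 (0.0308) also passed it when only the 4 sorted groups were fitted, and Shh (-1.86, 0.0238) with a pseudocount of 5.

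**Figure D3:**
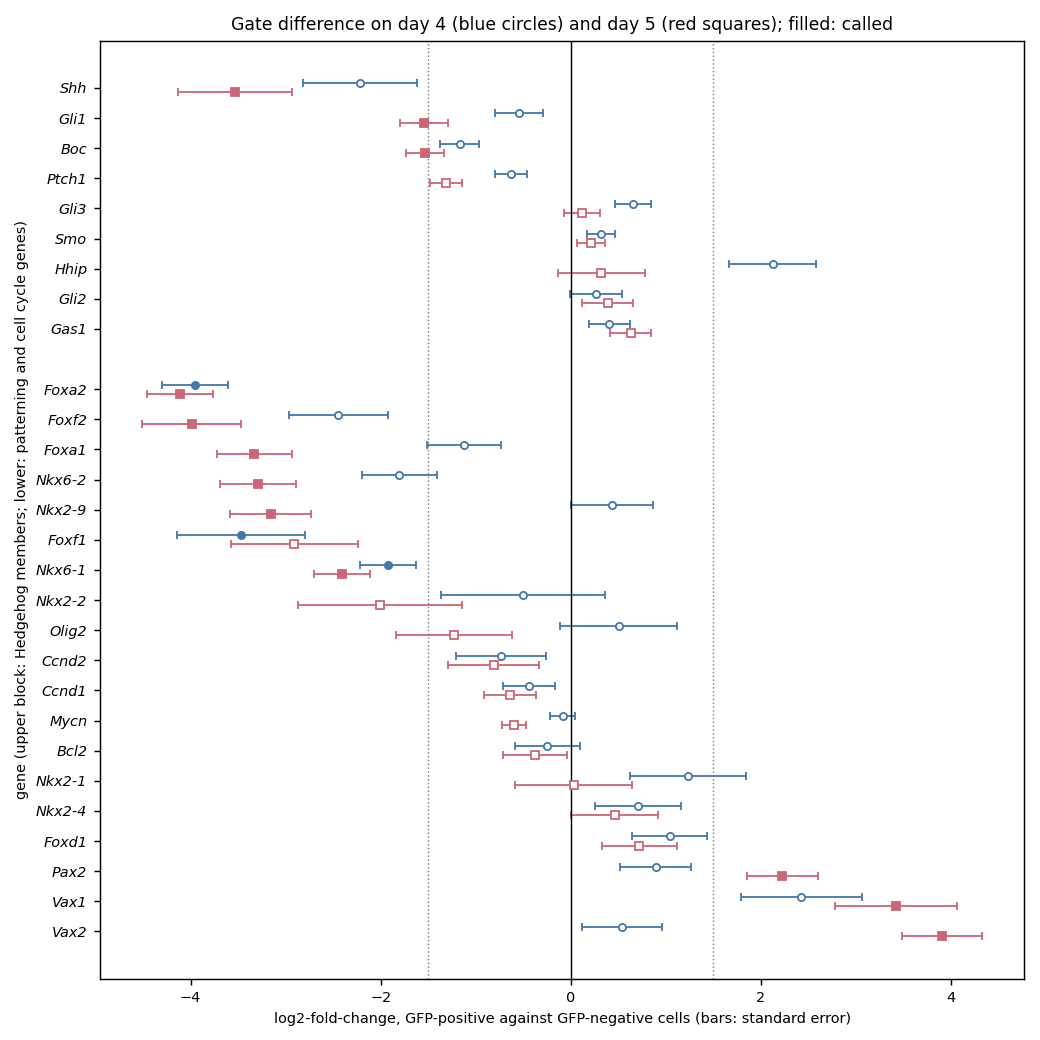
Log2-fold-change of GFP-positive over GFP-negative cells on day 4 (circles) and day 5 (squares) for the 9 members and for 19 patterning and cell cycle genes, with standard errors as bars; filled symbols are calls and dotted lines mark the fold limit of 1.5. Shh, Gli1, Boc and Ptch1 lie left of 0 on both days, as do Foxa2 and Nkx6-1, while Vax1, Vax2 and Pax2 lie right of 0.

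Marker genes of other cell types differed between the gates as well. The summed level of 8 genes of notochord, axial mesendoderm and definitive endoderm (T, Noto, Chrd, Gsc, Foxa2, Sox17, Mixl1 and Cer1) was 4082.8 to 5817.3 normalized counts in day 4 GFP-negative cells and 377 to 562 in day 4 GFP-positive cells. On day 5 it was 2710.5 to 4129.4 and 341 to 391. On the respective days 6 and 7 of the 8 genes were called lower in GFP-positive cells, with 3.96% and 5.01% of all genes called. Noto, a notochord gene, was at 0 in all libraries of day 2 and of day 4 GFP-positive cells, and was at 45.1, 19.4 and 48.8 in day 5 GFP-negative cells. These markers were therefore present in the population in which Shh was highest, and their part in the differences of Shh, Ptch1, Boc and Gli1 was not tested. From day 4 to day 5 in GFP-negative cells, where Shh rose, the genes of this list moved in both directions, and their sum follows its most abundant members. Mixl1 was called lower (-2.61), and Cer1 (-2.17) and Gsc (-1.49) passed the looser rule downwards. Noto passed it upwards (2.12), from 3.56, 7.39 and 13.8 normalized counts on day 4. Foxa2, at 510, 509 and 463 on day 4 and 1090, 607 and 861 on day 5, did not overlap between the days but passed neither rule (0.75), nor did Sox17 (0.70), Chrd (0.39) and T (-0.81).

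The remaining marker lists moved in the following way. The 5 genes of pluripotent cells were all called lower in GFP-positive cells on both days, with sums of 5556.7 to 6660.3 in day 5 GFP-negative and 320.0 to 428 in day 5 GFP-positive cells, after 132400 to 176170 on day 0. The 6 endothelial genes summed to 1482.9 to 2181.2 and 731 to 898 on day 5, with 3 of 5 tested genes called lower in GFP-positive cells. From day 4 to day 5 in GFP-negative cells, the step in which Shh and Gli1 rose, 3 of these 5 were called higher and 0 lower (median 1.52), where 1.27% of all genes were called. The sums of the 6 overlapped between the days (964.86 to 1815.0 on day 4). Cdh5 went from 19.2, 19.5 and 32.8 to 222, 170 and 110, Tie1 from 16.0, 15.5 and 11.3 to 91.7, 102 and 80.8, and Tek from 68.9, 65.9 and 50.6 to 189, 184 and 161, all without overlap. The most abundant genes of the list, Kdr and Pecam1, overlapped between the days. Kdr had 519, 1074 and 1401, then 1087, 1481 and 953. Pecam1 had 341, 254 and 320, then 333, 240 and 170. The part of endothelial cells in the rises of Shh and Gli1 was not tested. The 6 genes of surface ectoderm and neural crest summed to 7590.0 to 11639 and 3038.6 to 3278.6, with 2 called lower, and the 4 neuronal genes to 3147.8 to 3618.0 and 2667.4 to 2709.2, with 0 called. Gli1 and Ptch1 were also present in the stem cells of day 0. In GFP-negative cells the pluripotent sum was 13310 to 16028 on day 4 and lower on day 5, a step in which Gli1 and Ptch1 rose. The part of remaining pluripotent cells in the GFP-negative values was not tested.

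The other genes of the pathway were grouped by role, as 53 genes in 4 lists, of which 52 were tested. In the list of ligands and their release (Ihh, Dhh, Hhat, Disp1, Disp2, Scube1, Scube2 and Scube3), Scube1 and Scube2, of a family of secreted proteins that help lipid-modified ligand leave the producing cell, had the largest changes. Scube1 went from 107, 95.4 and 119 normalized counts on day 3 to 2478, 2899 and 2544 (day 4 GFP-negative) or 15711, 16702 and 16903 (day 4 GFP-positive). These groups did not overlap, and the rise from day 3 was 7.25 (SE 0.12, limma-adjusted p = 1.99e-20) above the gate and 4.61 below it, with a gate difference of 2.64. Scube2 rose by 5.60 and 4.11 in the same steps, and Scube3, named after its values were seen, by 1.60 in GFP-positive cells. Ihh, another Hedgehog ligand, had 293, 189.8 and 285 in day 5 GFP-negative and 10.1, 15.5 and 22.2 in day 5 GFP-positive cells, a log2-fold-change of -3.96 (SE 0.45, limma-adjusted p = 1.02e-06), after -2.56 on day 4.

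Across the gate on day 5 this list had 0 genes called higher and 1 lower (median log2-fold-change 0.06), and on day 4 it had 1 higher and 1 lower (0.55), where the medians of all genes were -0.0017 and 0.0067. The shares of all genes called were 5.01% and 3.96%. Of the 5 other surface receptors and co-receptors listed (Cdon, Lrp2, Gpc3, Mgrn1 and Mosmo), 1 was called in any comparison: Gpc3, a glypican that binds Hedgehog ligand, rose from day 0 to day 3 by 2.66 (SE 0.31, limma-adjusted p = 4.93e-07). Its values were 3066, 1044 and 676 on day 0 and 8357, 8456 and 7771 on day 3, without overlap. Of the 20 genes of the cilium and of cytoplasmic signal transduction, such as Sufu, Kif7 and Gpr161, 0 were called by limma in each of the 11 comparisons. Their number at an unadjusted p under 0.05 was 1 for the interaction and between 2 and 13 in the comparisons between groups, the highest for day 4 GFP-positive cells against day 3, where the list's median was 0.33. In that comparison 37.9% of all genes passed even the looser rule, and no share at the unadjusted cut is given.

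The last list held 20 patterning and cell cycle genes known to respond to Hedgehog signalling in some tissue, of which 19 were tested (Foxl1 was below the filter). On day 5, 6 of the 19 were called lower in GFP-positive cells and 3 higher, where 5.01% of all genes were called, 968 of 1052 of them lower. The list's median log2-fold-change was -0.81, against -0.0017 over all genes. The 6 were the floor plate and endoderm gene Foxa2 (-4.11), Foxa1 (-3.33), Foxf2 (-3.99) and the ventral neural genes Nkx2-9 (-3.16), Nkx6-1 (-2.41) and Nkx6-2 (-3.29), and the 3 were the optic stalk and ventral eye genes Pax2 (2.23), Vax1 (3.42) and Vax2 (3.91). With equal numbers in both gates treated as 1 pool, Vax1 was no longer called (limma-adjusted p = 0.00267), and Foxf1 was called lower (-2.91, limma-adjusted p = 0.000705). On day 4, 3 were called lower (Foxa2 at -3.95, Nkx6-1 at -1.93 and Foxf1 at -3.47) and 0 higher. Of all genes 3.96% were called on day 4, 763 of 832 of them lower. Foxa2 is also in the marker list for endoderm and notochord. Of the genes in this list, only Nkx6-1, Pax2 and Foxd1 fall under the rule for genes named from a pathway list, and the others were named after their values were seen.

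Nkx6-1 had 283, 362 and 488 normalized counts (day 4 GFP-negative), 80.7, 115 and 96.2 (day 4 GFP-positive), 919, 557 and 642 (day 5 GFP-negative) and 149, 127 and 113 (day 5 GFP-positive), after at most 8.86 in every library of days 0 to 3. GFP-negative replicates were above GFP-positive ones on both days. Pax2 had 1628, 2007 and 1684, then 3163, 3426 and 3275, then 1055, 1039 and 739, then 4613, 4363 and 4159.6 in the same order of groups. It ran the opposite way to Nkx6-1, with GFP-positive replicates above GFP-negative ones on both days.

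In GFP-negative cells, 4 genes of this list rose from day 4 to day 5 together with Shh and Gli1: Nkx2-9 (2.75), Nkx6-2 (3.91), Foxd1 (2.33) and Olig2 (4.34), and 0 fell, with 1.27% of all genes called. Nkx2-9 went from 42.8, 34.6 and 33.2 to 379, 157 and 268 normalized counts, and Olig2, a motor neuron and oligodendrocyte progenitor gene, from 1.83, 4.05 and 3.52 to 112, 56.9 and 82.2. Neither gene overlapped between the days. In GFP-positive cells 2 rose over the same step, Vax2 (4.16) and Nkx6-2 (2.42), with 1.49% of all genes called. The median of the list was 0.91 in GFP-negative and 0.59 in GFP-positive cells, against 0.0076 and 0 over all genes. Cell cycle genes of the list (Ccnd1, Ccnd2 and Mycn) were called in no comparison between gates.

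Levels of different genes can be compared only per length, for which the merged exons of all annotated transcripts were used. That length can exceed the length of the transcripts expressed here, so ranks and ratios between genes depend on it. Divided by the length of their merged exons, Smo had the highest mean of the 9 members in every group from day 1 on, from 396 normalized counts per kb on day 1 to 2258.3 in day 5 GFP-positive cells. On day 0 the means of Gli2, Smo and Gli1 were 335, 318 and 313 per kb, and replicate 1 differed from the others in their order. In that replicate Gli2 (135.5) and Gli1 (144) were below Smo (322), and in the other replicates Gli2 (495 and 376) and Gli1 (391 and 404) were above Smo (328 and 303). Gas1 went from 82.5 per kb on day 0 to 1992.4 in day 5 GFP-positive cells and Gli3 from 88.6 to 1141.4. From day 2 on the means of both exceeded those of Gli2 and Gli1. On day 2 they were 196 for Gas1 and 163 for Gli3, against 158 for Gli2 and 136 for Gli1, with replicates of Gli3 and Gli2 overlapping. From day 4 on Gli2 was at 376 to 593 per kb and Gli1 at 72.0 to 336. Shh reached 116 per kb in day 5 GFP-negative cells, against 454 for Ptch1 and 291 for Boc in the same libraries, and Hhip stayed between 1.64 and 18.7 per kb.

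**Figure D4:**
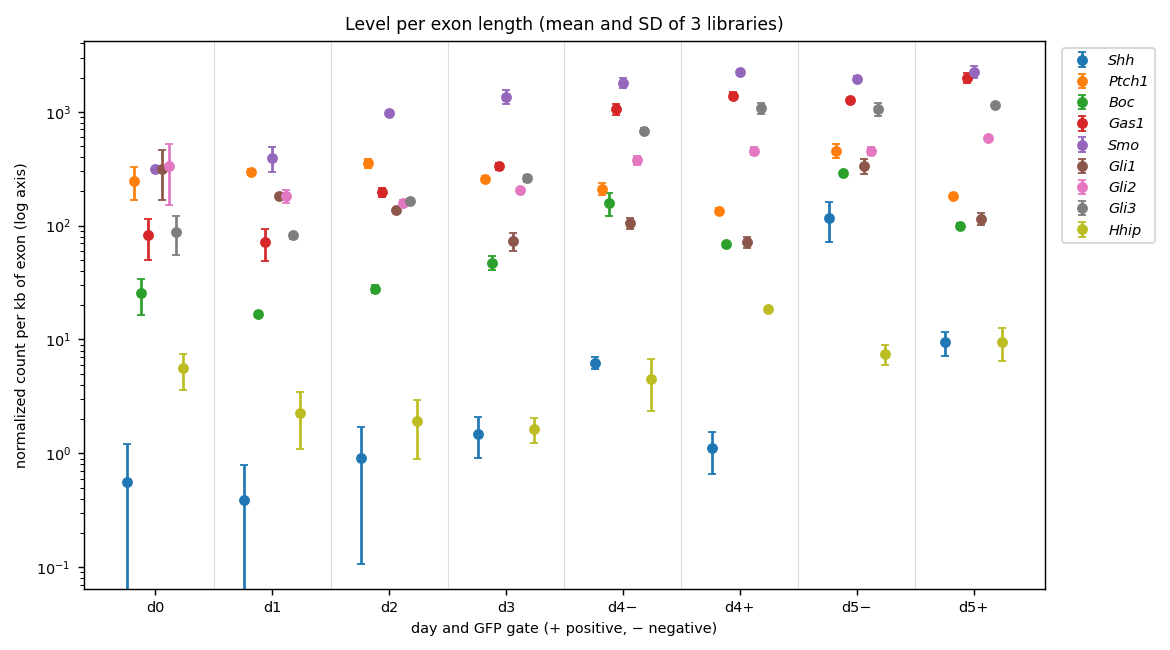
Mean normalized count per kb of merged exon (log axis) of the 9 members in the 8 groups, with SD of 3 replicates as bars, some of which for Shh run below the axis. Smo is the highest point from day 1 on, and Hhip and Shh are the lowest 2 in every group, with Shh reaching 116 in day 5 GFP-negative cells.

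Genes whose pattern over the 24 libraries was most like that of each member are given as a description, by Pearson correlation of log2(normalized count + 1) across libraries that share days and gates. For Shh they were Pou3f3 (0.946), Cx3cl1 (0.943) and Ntng2 (0.941), and for Gli1 Nkx6-2 (0.899), Pim1 (0.879) and Pakap (0.878). For Ptch1 the closest was Tal1 at 0.915, and for Hhip Stk32c at 0.884. For the other members the closest genes were Ndn at 0.994 for Gas1, Dbn1 at 0.993 for Smo, Plagl2 at 0.994 for Gli3, Pdlim4 at 0.980 for Boc and Ppp1r9b at 0.954 for Gli2.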

How the data were processed

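PolyA RNA-seq of 24 libraries in 8 groups of 3 replicates was used. The authors pseudo-aligned reads with kallisto 0.43.1 to Ensembl transcripts of mouse build mm10 and deposited a normalized signal per gene, estimated counts divided by DESeq2 normalization factors. Strandedness of the counting is not given in the sources used here. The table's columns of the authors' own comparisons (gene sets called up, down or stable, and calls between successive days) were not used. Totals were 39849111 to 51587535 per library, about 37200000 to 54400000 reads. Within a tolerance of 0.1, 45.6% to 76.9% of low values were whole reads, so no count model was fitted, and intervals cover replicate spread only.

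Genes that reached 10 normalized counts in 3 or more libraries were analysed as log2(value + 1), with a pseudocount of 1, with limma 3.58.1 in R 4.3.3 (1 fit of all groups, mean-variance trend, Benjamini-Hochberg adjustment per comparison). The added 1 understates fold changes of low genes. All tests are two-sided. Motifs and sequences came from RefSeq windows (GRCm38.p6), which matched 6 of 9 members and 42 of 53 other pathway genes, and exon lengths from GENCODE M21. The procedure was tested on simulated data.

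The members, gene lists and tests were chosen with earlier results of these data known. Some genes of the pathway are not reported here. Named genes are the 9 members, up to 3 genes per pathway list with the largest called change, marker lists by sum, and the 3 genes closest to each member by correlation. Single values of marker genes are given outside this rule. The alternatives tried were a pseudocount of 0.5 or 5, a filter of 50 or none, quantile normalization, no trend, a replicate block (over all days, or within each sorted day, the latter chosen after seeing the data), a fit of only the groups compared, the looser rule, and each library left out in turn.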

Additional observations from a re-analysis of the deposited data

Results flagged for a closer look

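Among the 9 members and the 52 other pathway genes tested, 1 had a gate difference called as changed between day 4 and day 5 by the test of that change, and 4 passed the looser rule of an adjusted p under 0.05. Over all genes, 0.109% were called and 1.10% passed the looser rule. Scube2, which encodes a secreted protein that helps Hedgehog ligand leave the producing cell, had a log2 interaction of -1.67 (SE 0.23, limma-adjusted p = 0.000554). With equal numbers in both gates of a day treated as 1 pool, a fit chosen after seeing the data, the value no longer passed the threshold (SE 0.25, limma-adjusted p = 0.00357). It had 986, 1064 and 1147 normalized counts in day 4 GFP-negative cells and 2898, 2858 and 3192 in day 4 GFP-positive cells, without overlap, a difference of 1.49. On day 5 it had 1294, 1244 and 1259 in GFP-negative and 1206, 1201 and 952 in GFP-positive cells, a difference of -0.19. The related Scube1 had a change of -1.26 (limma-adjusted p = 0.00041), below the fold limit of 1.5, with differences of 2.64 on day 4 and 1.39 on day 5. The other 2, with larger changes, were Nkx2-9 at -3.60 (limma-adjusted p = 0.00306) and Vax2 at 3.37 (limma-adjusted p = 0.00438), and with the pools of a day as a block the 4 still passed the looser rule. The cause was not tested.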

How the results depend on the processing

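Of the 15 called values of members, 15 kept their call with no filter, with a filter of 50, under quantile normalization, without the trend and with the replicate block, 14 with a pseudocount of 5, 13 with a pseudocount of 0.5 (both calls of Shh were lost) and 10 when only the groups compared were fitted, where each group's spread rests on fewer libraries. Called values changed sign in 0 alternatives, and 9 of the 15 were kept without each library in turn. With a pseudocount of 0.5, 1 member was called in GFP-negative cells from day 4 to day 5 (2 as reported). With a pseudocount of 5, 0 were called from day 1 to day 2 (1 as reported), 1 between the gates on day 4 (Hhip) and 1 in GFP-positive cells from day 4 to day 5 (Shh), both 0 as reported. With only the groups compared, 0 were called from day 1 to day 2, 1 from day 0 to day 3 (4 as reported) and 1 in day 4 GFP-negative cells against day 3 (2 as reported). With an adjusted p under 0.05 and no fold limit, 4 were called from day 1 to day 2, 5 from day 2 to day 3, 7 and 6 in day 4 GFP-positive and GFP-negative cells against day 3, 5 between the gates on each day, and 1 and 5 from day 4 to day 5 in GFP-positive and GFP-negative cells.

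Leaving out 1 library in turn gave 0 to 1 members from day 1 to day 2, 1 to 3 between the gates on day 5 and 0 to 2 in GFP-negative cells from day 4 to day 5. In such fits the remaining pair of replicates was assumed to vary like the other groups. Values that changed sign were all near 0 and not called. Under quantile normalization they were 0.000896 for Gli3 from day 0 to day 1, 0.00142 for Hhip from day 2 to day 3, 0.16 for Shh and 0.0135 for Gli1 from day 3 to GFP-positive cells of day 4, and -0.0014 for Gli3 between the gates on day 5. Without single libraries the ranges from day 0 to day 1 were -0.45 to 0.10 for Gas1, -0.40 to 0.15 for Gli3 and -0.76 to 0.33 for Shh. They were -0.18 to 0.30 for Ptch1 from day 0 to day 3, -0.75 to 0.31 for Hhip from day 1 to day 2 and -0.62 to 0.23 from day 2 to day 3. They were -0.12 to 0.13 for Gli1 in day 4 GFP-positive cells against day 3, -0.0020 to 0.14 for Gli3 and -0.059 to 0.12 for Smo in GFP-positive cells from day 4 to day 5, and -0.18 to 0.0076 for the interaction of Smo.

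The labels repeat the replicate numbers in each group, and the deviations of libraries with equal numbers correlated at -0.00054 on average over 28 pairs of groups. In 1 pair, day 3 and day 5 GFP-negative, each of the 3 correlations was over 0.1 (0.401, 0.165 and 0.133). Between the gates they were -0.108, 0.0227 and -0.101 on day 4 and 0.00792, -0.075 and 0.147 on day 5. By the methods of the study, organoids of days 4 and 5 were split at the gate, so equal numbers on a day may mark 1 pool, which the sources used here do not state and these values do not settle. The replicate block over all days changed 0 calls of members. A replicate block within each sorted day, added after seeing the data, gave 0 members between the gates on day 4, 3 on day 5 and 0 for the interaction, as without it, and Gas1 on day 5 no longer passed the looser rule (limma-adjusted p = 0.0906). Over all genes the interaction had 15 and 11 calls under these blocks, against 23 (51 without day 0 replicate 1). Between the gates on day 5, quantile normalization gave 675 called genes, against 1052. Depth limits Shh most, since its values before day 4 are of the order of a few reads.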

Other observations

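In day 5 GFP-negative cells the 3 replicates of Shh, at 455, 205 and 332 normalized counts, ranked the same way as those of several other genes. The order of replicate 1 above replicate 3 above replicate 2 was taken from these values of Shh, which therefore holds it by construction, and no test was made. The order held for 4 of the 9 members (Shh itself, Ptch1, Gli1 and Smo) and for 4435 of all 21005 genes tested (21.1%). It also held for 5 of the 6 patterning genes called lower in day 5 GFP-positive cells, for 4 of 8 genes of notochord, axial mesendoderm and definitive endoderm, for 3 of 5 genes of pluripotent cells and for 0 of 5 endothelial genes tested. The 6 patterning genes were picked through a comparison with these same libraries. Neither their count nor that of the members can therefore be set against the share of all genes. Replicates have no order of their own, and the values only describe the ranks in these libraries.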
